A study of Caenorhabditis elegans with 32 samples.

Results

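GATA factors and other transcription factors tied to ageing in the nematode Caenorhabditis elegans were followed at the mRNA level between day 12 and day 2 of adulthood. The 9 named genes were elt-1, elt-2, elt-3, elt-6, elt-7, egl-18, pqm-1, skn-1 and pha-4. They were looked up by name in a transcript table deposited for untreated animals, which held 5 of them (elt-1, elt-2, elt-7, pqm-1 and pha-4) as 6 transcripts, and these transcripts were followed into the other tables. The other 4 genes were not under those names in that table and were found in the other tables through their RefSeq accessions. With further transcripts of elt-1 and pha-4 this gave 17 transcripts of 9 genes among 48063 transcripts of 43735 genes, and 15 of the 17 had a usable estimate. The 2 without one are the single transcripts of elt-6 and egl-18.

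Poly-A mRNA of whole animals was sequenced in 20 libraries of 10 groups with 2 libraries each. All animals, controls included, carried glp-1(e2141), a temperature-sensitive allele under which adults raised warm, as all of these were, lack most of their germline, so the data describe mainly somatic tissue. The groups, at day 12 and at day 2 each, were glp-1(e2141) animals labelled as fed met-1 RNA interference bacteria, glp-1(e2141) animals fed bacteria with L4440 (an empty vector), glp-1(e2141) animals that also carried met-1(n4337) and are called met-1 mutants, their glp-1(e2141) controls, and glp-1(e2141) animals with no RNA interference that were grown alongside chromatin samples and are called untreated. The gene met-1 encodes a methyltransferase of histone H3 lysine 36. Worms of day 12 were fed a further time on day 4. The 8 RNA interference libraries have a value each, and every other group has 1 value for both libraries together, which allows no test.

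GATA factors are zinc finger proteins that bind the DNA sequence they are named after and set up the nematode's intestine and epidermis. ELT-2 is the main GATA factor of the intestine, where ELT-7 acts with it, while ELT-1 specifies the epidermis in the embryo, ELT-3 acts in its differentiation, and EGL-18 and ELT-6 act in its seam cells. PQM-1 is a zinc finger protein of the intestine that works opposite the insulin-signalling target DAF-16, SKN-1 is the counterpart of the vertebrate Nrf factors and turns on detoxification genes, and PHA-4 is a FoxA factor that specifies the pharynx and is required for the long life of diet-restricted worms.

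The relative read number of the 8 libraries ran from 0.355 in the second L4440 library of day 12 to 1.298 in the first met-1-labelled library of day 12. FPKM is a level scaled both to transcript length and to the mapped fragments of a library. The median gene of the RNA interference table was 0.50 higher on the log2(FPKM + 1) scale at day 12 than at day 2, as deposited, so changes with age are given relative to the median gene, and the values as deposited stand beside them where they point the other way. Summed met-1 FPKM was 80.1 and 57.1 in met-1-labelled libraries and 10.7 and 29.8 in L4440 libraries of day 12, and 13.025 and 27.5 in met-1-labelled libraries and 7.80 and 5.03 in L4440 libraries of day 2. The targeted gene thus had higher listed summed levels under the label of its own knockdown. At day 12 the excess lay mostly in NM_182042, with 76.8 and 52.9 FPKM in met-1-labelled and 10.7 and 24.1 FPKM in L4440 libraries. The other transcript, NM_058939, had 3.28 and 4.24 FPKM in met-1-labelled and 0.00976 and 5.71 FPKM in L4440 libraries of day 12. At day 2 NM_182042 had 7.76 and 27.5 FPKM in met-1-labelled and 5.82 and 2.13 FPKM in L4440 libraries. There NM_058939 had 5.27 and 0.00193 FPKM in met-1-labelled and 1.98 and 2.90 FPKM in L4440 libraries. The reason for the excess was not tested. These samples are called libraries labelled met-1 RNA interference, or met-1-labelled, throughout.

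Of the 7 genes that could be tested, 2 fell with age in the fit over both RNA interference arms, elt-1 and skn-1, and none rose (limma on log2 of summed FPKM + 1, adjusted p below 0.05). Among all 15850 genes tested, 22.4% fell and 16.7% rose, so a share of 2 in 7 is close to that of all genes. One more gene, pqm-1, was 0.84 higher on the log2 scale with a test that depended on the scaling. As deposited, pqm-1, elt-2 and elt-7 had higher FPKM at day 12 in all 5 ageing experiments. The share of all genes higher in all 5 was not counted, and the median gene of the RNA interference table was higher too. The largest change belonged to 1 transcript of skn-1, NM_171347, which fell while the other named transcript of the gene was not called lower. As deposited, without scaling to the median, elt-1 and skn-1 (its 2 named transcripts) were still lower at day 12 but not called, and elt-2 and pqm-1 were called higher. With a further transcript of the skn-1 locus added, the ages overlapped as deposited in both arms.

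**Figure D1:**
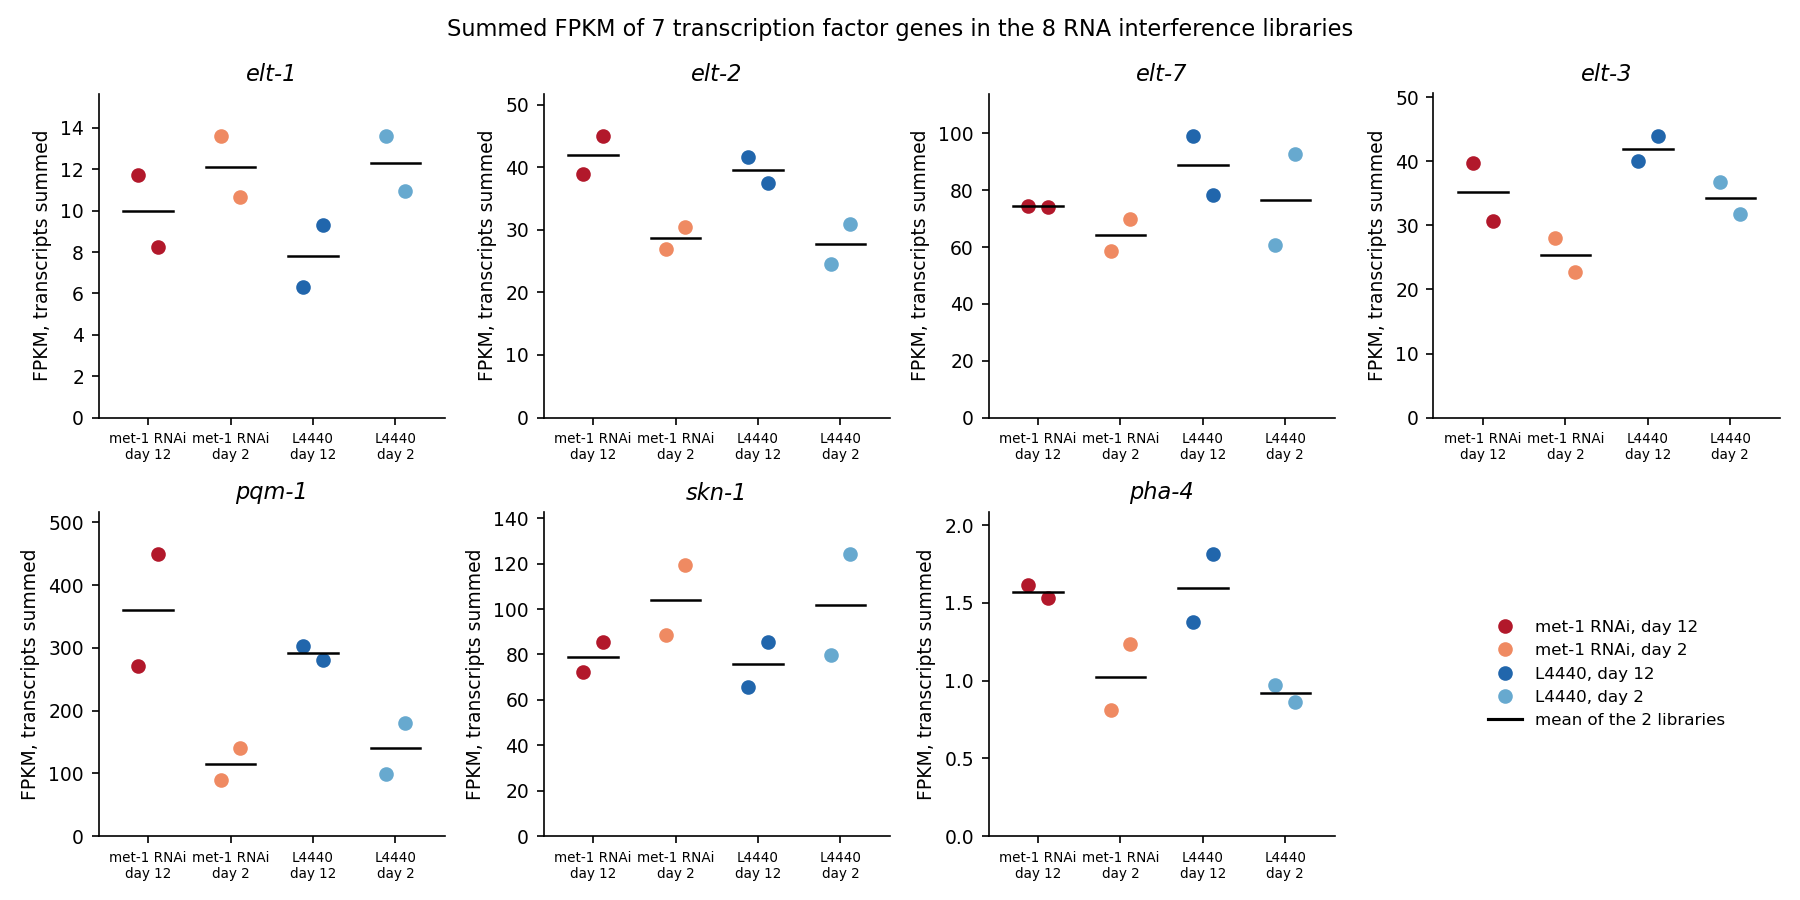
FPKM summed over the transcripts of a gene (y axis, as deposited, a scale of its own in each panel) in the 8 libraries of the RNA interference experiment, with each point 1 library and each bar the mean of 2. Summed over its 2 named transcripts, skn-1 is lower in the day 12 groups than in the day 2 groups of both arms. The gene pqm-1 is higher there, and reaches 449 FPKM in 1 met-1-labelled library of day 12.

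The intestinal factor elt-2 (NM_077354, chromosome X, 10481171 to 10483117 in the coordinates of the tables, for which the sources used here state no genome build) had 39.0 and 45.02 FPKM at day 12 and 26.9 and 30.4 FPKM at day 2 in met-1-labelled libraries. The L4440 libraries had 41.7 and 37.5 FPKM at day 12 and 24.6 and 30.9 FPKM at day 2. Every day 12 library was above every day 2 library as deposited, which also held for 42.8% of all genes. Relative to the median gene the change was −0.01 ± 0.12 on the log2 scale (SE, limma adjusted p = 0.963), while as deposited it was 0.52 with an adjusted p of 0.0109. Its level thus moved with the median gene of these libraries. In the pooled tables elt-2 had 52.4 FPKM at day 12 and 36.4 FPKM at day 2 in met-1 mutants, and 44.4 FPKM at day 12 and 36.9 FPKM at day 2 in their controls. Those log2 ratios were 0.51 and 0.25 relative to the median and had no replicate check.

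The second intestinal factor, elt-7, has 2 transcripts on chromosome V (4770699 to 4772872). Summed elt-7 was 74.5 and 74.2 FPKM at day 12 and 58.7 and 69.8 FPKM at day 2 in met-1-labelled libraries. In L4440 libraries it was 99.2 and 78.5 FPKM at day 12 and 60.6 and 92.6 FPKM at day 2, so the ages overlapped there. The change was −0.31 ± 0.17 (SE, limma adjusted p = 0.221) relative to the median, and 0.22 as deposited. Without the first L4440 library of day 2 it was −0.47 with an adjusted p of 0.0467. Its transcript NM_071882 changed by −0.02 ± 0.10 relative to the median (limma adjusted p = 0.900) and by 0.49 as deposited, and NM_001129384 by −0.54 ± 0.29 (limma adjusted p = 0.217, and 0.0425 without the first L4440 library of day 2). In bulk samples such as these, fewer cells of a type and less RNA per cell cannot be told apart, for elt-7 as for every gene below. The tables divide elt-7 between its transcripts differently. In the table of untreated animals NM_001129384 had 3.63 FPKM at day 12 and 1.16 FPKM at day 2, against 26.2 to 56.5 FPKM over the 8 RNA interference libraries.

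The zinc finger gene pqm-1 (NM_063990, chromosome II, 11150482 to 11152488) was the most abundant, per length, of the 7 genes with usable values at day 12 in the RNA interference, mutant and control tables. It had 270.7 and 449 FPKM at day 12 and 90.1 and 140.5 FPKM at day 2 in met-1-labelled libraries. With L4440 it had 303 and 280.4 FPKM at day 12 and 99.6 and 181 FPKM at day 2. All 4 day 12 libraries were above all 4 day 2 libraries as deposited, as for 42.8% of all genes, but after scaling to the median the ages overlapped. The means were 360 ± 126 FPKM at day 12 and 115 ± 36 FPKM at day 2 in met-1-labelled libraries, and 292 ± 16 FPKM at day 12 and 140 ± 57 FPKM at day 2 in L4440 libraries (SD, n = 2 each).

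Relative to the median gene, pqm-1 was 0.84 ± 0.29 higher at day 12 over both arms (SE, limma adjusted p = 0.0648), which missed the threshold. It passed as deposited (1.37, adjusted p = 0.00833), after quantile normalization (1.21, adjusted p = 0.00689) and with libraries scaled to equal summed FPKM (0.94, adjusted p = 0.0179), and also without the second L4440 library of day 2 (1.07, limma adjusted p = 0.0354, against 0.0354 to 0.172 over the 8 libraries left out in turn). Its change was 1.11 ± 0.40 in met-1-labelled animals (limma adjusted p = 0.0986, with 10.6% of all genes called higher) and 0.56 ± 0.40 in L4440 animals (adjusted p = 0.370, with 8.52% called higher). With each library left out in turn, it ran from 0.75 to 1.50 in met-1-labelled and from 0.11 to 1.02 in L4440 animals. Over both arms it then ran from 0.61 to 1.07. The value in met-1-labelled animals passed as deposited (1.62, limma adjusted p = 0.0224), after quantile normalization (1.47, adjusted p = 0.0167) and with equal summed FPKM (1.19, adjusted p = 0.0374). In the pooled tables pqm-1 had 254 FPKM at day 12 and 103.8 FPKM at day 2 in met-1 mutants, past 2-fold at a log2 ratio of 1.27. The controls of the mutants had 244 FPKM at day 12 and 129 FPKM at day 2, a log2 ratio of 0.90. Past 2-fold higher were 16.9% of genes in the mutant and 13.9% in the control. In untreated animals it had 196 FPKM at day 12 and 125 FPKM at day 2, and the authors' deposited table gives this a log2 fold change of 0.66 with a q-value of 0.0014. That was the only one of the 6 member transcripts in the authors' deposited table with a q-value below 0.05, where 32.3% of all transcripts were below it. There, elt-2 had a log2 fold change of 0.17 (q = 0.534) and the 2 elt-7 transcripts 0.03 (q = 0.979) and 1.65 (q = 0.949) in the authors' deposited table.

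**Figure D2:**
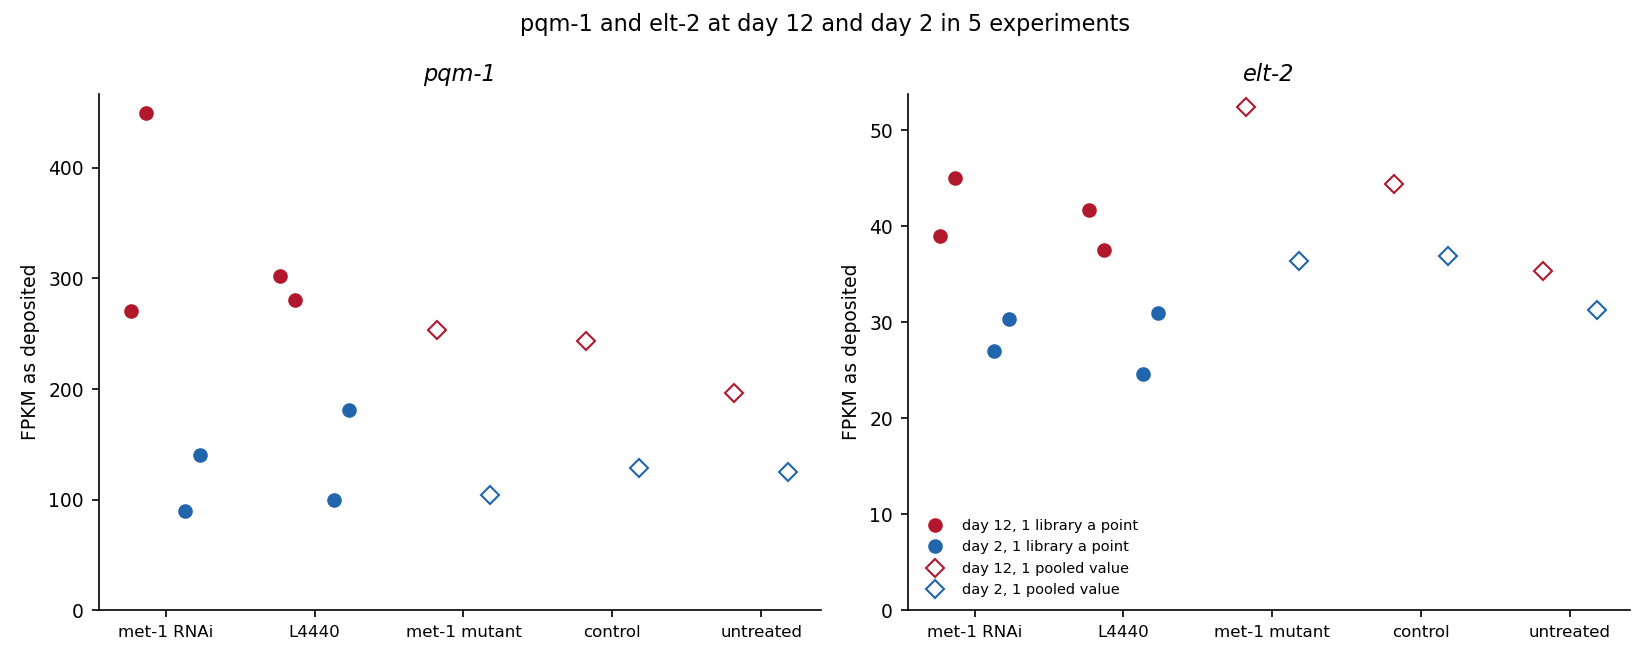
FPKM as deposited (y axis) of pqm-1 (left) and elt-2 (right) at day 12 and day 2 in 5 experiments (x axis), with filled points for single libraries and open diamonds for pooled values. In each experiment both genes are higher at day 12, pqm-1 by more than elt-2, while relative to the median gene elt-2 changed by −0.01 in the RNA interference libraries.

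Among the epidermal factors, elt-1 (chromosome IV, 9615137 to 9619635, 4 transcripts summed) fell with age. It had 11.7 and 8.25 FPKM at day 12 and 13.6 and 10.6 FPKM at day 2 in met-1-labelled libraries. Under L4440 it had 6.29 and 9.31 FPKM at day 12 and 13.6 and 10.97 FPKM at day 2. As deposited the ages overlapped in the met-1-labelled arm, and after scaling to the median every day 12 library was below every day 2 library, as for 23.2% of all genes. The change over both arms was −0.97 ± 0.18 (SE, limma adjusted p = 0.0089), with −0.77 ± 0.26 in met-1-labelled animals (adjusted p = 0.0783) and −1.16 ± 0.26 in L4440 animals (adjusted p = 0.025). Genes called lower made up 15.4% of all genes in the met-1-labelled arm and 15.2% in the L4440 arm. The call over both arms held without any 1 library, at adjusted p of 0.0129 to 0.0366, and was lost as deposited, where elt-1 was still lower (−0.44, adjusted p = 0.0944). The L4440 call was lost without either L4440 library of day 2 (adjusted p = 0.103 and 0.0697) or without the first of day 12 (−0.90, limma adjusted p = 0.1001).

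Pooled values of elt-1 moved the same way and further. It had 4.43 FPKM at day 12 and 14.4 FPKM at day 2 in met-1 mutants, and 3.18 FPKM at day 12 and 10.7 FPKM at day 2 in their controls. Both log2 ratios were past 2-fold, at −1.51 and −1.50, as were 17.8% and 15.3% of all genes in the lower direction. In the RNA interference libraries NM_001268475 made up 66.3% to 93.6% of the gene's FPKM, against 71.6% at day 12 and 77.02% at day 2 in met-1 mutants and 38.5% at day 12 and 71.3% at day 2 in their controls. It had 9.46 and 6.43 FPKM at day 12 and 10.9 and 8.53 FPKM at day 2 in met-1-labelled libraries, and 4.18 and 8.71 FPKM at day 12 and 10.7 and 7.27 FPKM at day 2 in L4440 libraries. This transcript changed by −0.88 ± 0.26 (SE, limma adjusted p = 0.0493, where 18.5% of all transcripts were called lower), a call lost without 7 of the 8 libraries in turn. A second transcript, NM_001038347, changed by −1.21 ± 0.37 (limma adjusted p = 0.0526), and was listed at 0.000242 FPKM in the second L4440 library of day 12 against 1.55 to 3.01 FPKM in the other 7, and without that library it was called lower (−0.82, adjusted p = 0.0428), as it was without the first L4440 library of day 12 (−1.58, adjusted p = 0.00676). The transcript that the table of untreated animals names, NM_001038346, stayed below 0.2 FPKM in every RNA interference library. It had 1.88 FPKM at day 12 and 2.35 FPKM at day 2 in untreated animals, where the authors' deposited table gives a log2 fold change of −0.33 (q = 0.563).

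The second epidermal factor, elt-3 (chromosome X, 13934805 to 13940637), had 39.7 and 30.7 FPKM at day 12 and 28.1 and 22.8 FPKM at day 2 in met-1-labelled libraries. In L4440 libraries it had 39.98 and 44.0 FPKM at day 12 and 36.7 and 31.8 FPKM at day 2. As deposited the ages did not overlap within either arm but overlapped over both arms, and the share of all genes like this was not counted. Relative to the median the change was −0.16 ± 0.12 (SE, limma adjusted p = 0.357), against 0.37 as deposited (adjusted p = 0.0504). The pooled tables gave lower values at day 12, with 22.3 FPKM at day 12 and 32.1 FPKM at day 2 in met-1 mutants and 12.1 FPKM at day 12 and 25.7 FPKM at day 2 in their controls. The log2 ratio of −1.04 in the control was past 2-fold and the −0.51 in the mutant was not.

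The 2 named elt-3 transcripts differed in spread. NM_001270307 had 22.7 to 39.1 FPKM over the 4 met-1-labelled libraries and 15.7 to 37.0 FPKM over the 4 L4440 libraries. NM_001270308 had 0.567 and 0 FPKM at day 12 and 2.38 and 0.0509 FPKM at day 2 in met-1-labelled libraries, against 12.8 and 7.01 FPKM at day 12 and 3.51 and 16.1 FPKM at day 2 in L4440 libraries. Every met-1-labelled library was thus below every L4440 library for this transcript, as for 0.786% of all transcripts. The difference between the arms was −3.08 ± 0.84 at day 12 (SE, limma adjusted p = 0.308) and −2.26 ± 0.84 at day 2 (adjusted p = 1.00), neither of them called. A value of 0 here can be a failed estimate, and 2 further transcripts of the same locus carry no gene name in the tables used here. One of them, NM_001270306, was at 21.2 to 32.3 FPKM in the pooled tables and at 0.00309 FPKM or less in the 8 libraries, so the tables divide the reads of this locus differently. With both added, the elt-3 locus had 61.6 FPKM at day 12 and 83.7 FPKM at day 2 in met-1 mutants, and 50.5 FPKM at day 12 and 80.7 FPKM at day 2 in their controls, so that the control was no longer past 2-fold.

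The epidermal seam factors elt-6 (NM_067743) and egl-18 (NM_067742) are neighbours on chromosome IV. Both have the status HIDATA, which marks too many fragments for an estimate, in every status column that the mutant and control tables have, and they are listed at 0 there. The tables place both in 1 merged locus, from 380017 to 4526957, that spans far more than these genes. They were left out of every test.

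The gene skn-1 (chromosome IV, 5651748 to 5660369) showed a change in which of its transcripts was abundant. NM_171347 had 21.996 and 31.3 FPKM at day 12 and 58.5 and 81.0 FPKM at day 2 in met-1-labelled libraries. In L4440 libraries it had 26.1 and 23.97 FPKM at day 12 and 56.7 and 87.3 FPKM at day 2. Every day 12 library was below every day 2 library as deposited, as for 9.98% of all transcripts. NM_171345 ran the other way as deposited, with 50.4 and 54.1 FPKM at day 12 and 29.9 and 38.2 FPKM at day 2 in met-1-labelled libraries, and 39.7 and 61.5 FPKM at day 12 and 23.2 and 36.9 FPKM at day 2 in L4440 libraries. So NM_171347 exceeded NM_171345 in all 4 day 2 libraries and was below it in all 4 day 12 libraries.

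NM_171347 fell by 1.91 ± 0.22 on the log2 scale relative to the median (SE, limma adjusted p = 0.0018), and NM_171345 changed by 0.17 ± 0.22 (adjusted p = 0.621). The change of NM_171347 was −1.85 ± 0.31 in met-1-labelled animals (limma adjusted p = 0.0114) and −1.98 ± 0.31 in L4440 animals (adjusted p = 0.00958), where 12.3% and 11.9% of all transcripts were called lower. It was called under every scaling, filter and pseudocount tried, also as deposited (−1.41, adjusted p = 0.00331), and without each library in turn (−2.08 to −1.75, adjusted p of 0.00361 to 0.00907). The pooled tables showed 11.4 FPKM at day 12 and 47.9 FPKM at day 2 in met-1 mutants, and 14.5 FPKM at day 12 and 39.4 FPKM at day 2 in their controls, log2 ratios of −1.97 and −1.38, where 17.7% and 15.6% of all transcripts were past 2-fold lower.

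The share of NM_171347 in the sum of both transcripts in met-1-labelled libraries was 30.4% and 36.6% at day 12, against 66.2% and 67.9% at day 2. In L4440 libraries it was 39.7% and 28.1% at day 12 and 71.0% and 70.3% at day 2. It was 15.2% at day 12 and 53.9% at day 2 in met-1 mutants, and 24.03% at day 12 and 53.1% at day 2 in their controls. A test of each transcript against the other transcripts of its gene gave a difference of −2.08 ± 0.34 for NM_171347 (SE, limma diffSplice adjusted p = 0.00686). It called 5.47% of 4769 transcripts, and no transcript of elt-1, elt-3 or elt-7, whose adjusted p was 0.476 or more. The interaction of that difference with the arm was 0.22 ± 0.68 (limma diffSplice adjusted p = 0.983).

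A further transcript with exactly the same locus, NM_171346, carries no gene name in the tables used here and was not part of these sums. It had 54.4 and 79.3 FPKM at day 12 and 36.7 and 33.8 FPKM at day 2 in met-1-labelled libraries, and 55.4 and 43.8 FPKM at day 12 and 31.3 and 30.2 FPKM at day 2 in L4440 libraries. With it counted in, the share of NM_171347 was 17.3% to 21.6% at day 12 and 46.8% to 56.5% at day 2 over the 8 libraries, and its difference from the other transcripts was −2.13 ± 0.27 (SE, limma diffSplice adjusted p = 3.5e-04). The age change of NM_171346 then exceeded that of the other transcripts by 1.14 ± 0.27 (limma diffSplice adjusted p = 0.0244). How the counting tool divides reads among transcripts that overlap was not tested, and the tables do not say which SKN-1 protein form each transcript encodes.

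**Figure D3:**
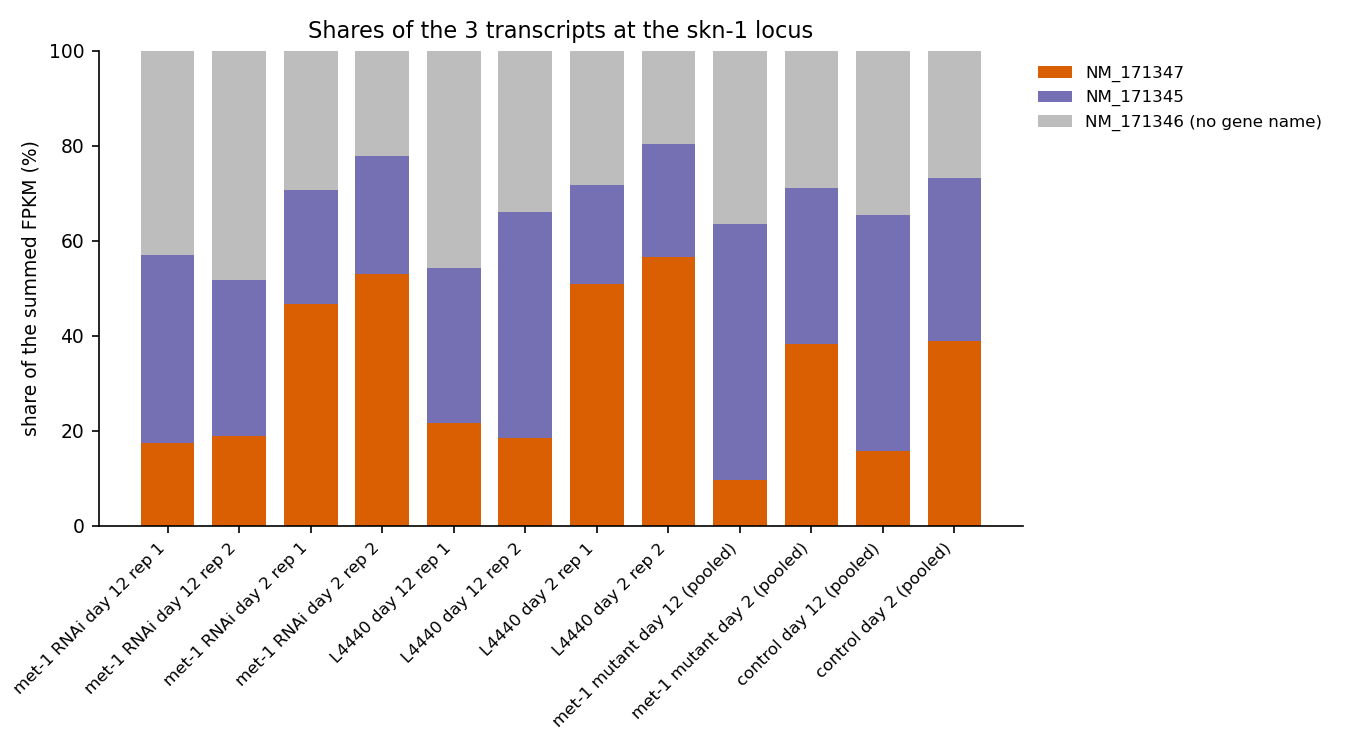
Share of each transcript in the summed FPKM of the 3 transcripts at the skn-1 locus (y axis, %), for the 8 RNA interference libraries and the 4 pooled values of mutant and control (x axis), day 12 left of day 2. NM_171347 takes 17.3% to 21.6% of the sum in the 4 day 12 libraries and 46.8% to 56.5% in the 4 day 2 libraries.

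Summed over its 2 named transcripts, skn-1 had 72.4 and 85.4 FPKM at day 12 and 88.4 and 119.2 FPKM at day 2 in met-1-labelled libraries, and 65.8 and 85.4 FPKM at day 12 and 79.8 and 124 FPKM at day 2 in L4440 libraries. The sum fell by 0.92 ± 0.20 relative to the median (SE, limma adjusted p = 0.0151). With NM_171346 added the fall was 0.53 ± 0.16 (adjusted p = 0.0471), so the size of the fall depended on which transcripts were summed. The call was lost as deposited (−0.39, adjusted p = 0.131), without the first met-1-labelled library of day 12 (−0.85, adjusted p = 0.0525) and without the met-1-labelled library of day 2 with the number 2 (−0.81, adjusted p = 0.0523). Within the arms it was −0.89 ± 0.28 in met-1-labelled animals (adjusted p = 0.0698) and −0.95 ± 0.28 in L4440 animals (adjusted p = 0.0613). The L4440 value was called without the first L4440 library of day 2 (−1.30, limma adjusted p = 0.0354), and the met-1-labelled value without either L4440 library of day 2 (adjusted p = 0.0434 and 0.0437). The pooled log2 ratios of the sum were −0.25 in met-1 mutants and −0.30 in controls, and −0.09 and −0.15 with NM_171346 added. As deposited, the sum with NM_171346 overlapped between the ages in both arms. It was 127 and 165 FPKM at day 12 and 125 and 153 FPKM at day 2 in met-1-labelled libraries. For L4440 it was 121 and 129 FPKM at day 12 and 111 and 154 FPKM at day 2.

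The FoxA gene pha-4 (chromosome V, 20748439 to 20755068) was listed at very different levels in the tables. Its transcript NM_001047649 was listed at 0 in all 8 RNA interference libraries but at 11.5 FPKM at day 12 and 5.99 FPKM at day 2 in met-1 mutants, 11.8 FPKM at day 12 and 4.58 FPKM at day 2 in their controls, and 9.06 FPKM at day 12 and 9.21 FPKM at day 2 in untreated animals. The 0 in the RNA interference table may be a failed estimate, so the sum there rests on NM_001047651, at 0.809 to 1.81 FPKM. As deposited the sum was higher in every day 12 library than in every day 2 library, as for 42.8% of all genes. At day 2 only the second met-1-labelled library reached 1 FPKM (1.24 FPKM), so pha-4 passed the filter on low values through day 12. The sum changed by −0.14 ± 0.16 relative to the median (SE, limma adjusted p = 0.546) and by 0.39 as deposited. The pooled sums were 22.5 FPKM at day 12 and 10.3 FPKM at day 2 in met-1 mutants, and 20.7 FPKM at day 12 and 10.0 FPKM at day 2 in their controls, log2 ratios of 1.05 and 0.97. In untreated animals the authors' deposited table gives the single listed transcript a log2 fold change of −0.02 (q = 0.975), so the pooled tables differed among themselves.

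**Figure D4:**
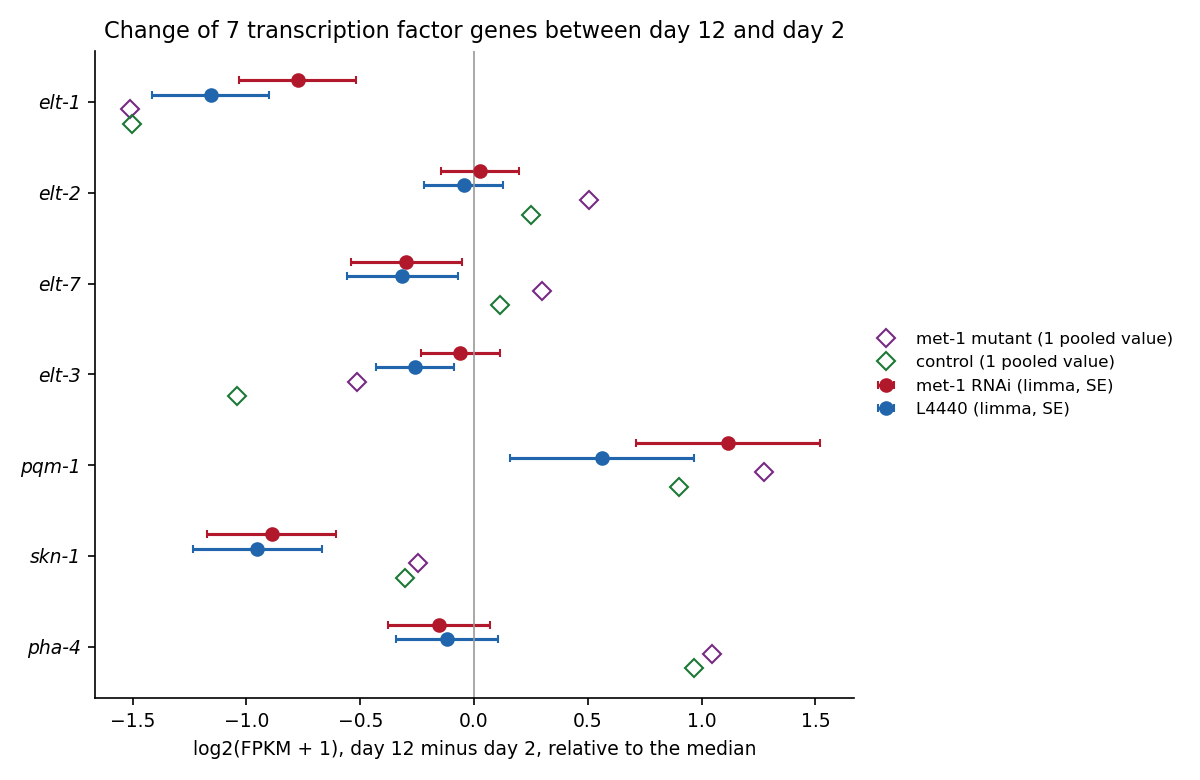
Difference of log2(FPKM + 1) between day 12 and day 2 relative to the median gene (x axis) for the summed transcripts of 7 genes (y axis), with filled points and SE bars for the RNA interference arms (limma) and open diamonds for pooled values. In all 4 experiments elt-1 lies below −0.7, while pqm-1 lies above 0.5. As deposited, elt-2, elt-3, elt-7 and pha-4 were higher at day 12 in the RNA interference libraries.

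The comparison of arms asked whether the label of met-1 knockdown, or the met-1 mutation, moved these factors. None of the 7 genes was called between met-1-labelled and L4440 libraries by limma at day 12, where the smallest adjusted p was 0.631 and no gene had an unadjusted p below 0.05. At day 2 none was called either, and 1 gene had an unadjusted p below 0.05. That gene was elt-3, at 25.4 ± 3.8 FPKM in met-1-labelled and 34.3 ± 3.5 FPKM in L4440 libraries (SD, n = 2 each), a difference of −0.46 ± 0.17 (SE, limma adjusted p = 1.00). With the unnamed transcripts of its locus added the difference was −0.29. Few genes of any kind were called, 0.606% at day 12 and 0.208% at day 2. A difference of the age change between the arms was called for none of the 7 genes, and none had an unadjusted p below 0.05 (limma interaction, smallest adjusted p = 0.952, with 0.404% of all genes called), and the largest interaction, 0.55 ± 0.57 for pqm-1, was within its error. Standard errors of the differences between arms were 0.17 to 0.40 on the log2 scale, so differences of that size were not detectable. The −0.46 of elt-3, larger than any of these errors, was not called either. The smallest difference that the test could call was not determined.

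Between met-1 mutants and their controls no member gene passed 2-fold at either age. The largest of these pooled ratios was that of elt-3 at day 12, with 22.3 FPKM in mutants and 12.1 FPKM in controls, 0.65 on the log2 scale relative to the median. With the unnamed transcripts of the locus added it was 61.6 FPKM in mutants and 50.5 FPKM in controls, a log2 ratio of 0.10, which is smaller than that of elt-7 (−0.37). At day 2 the largest was elt-7, with 43.2 FPKM in mutants and 56.0 FPKM in controls, a log2 ratio of −0.54. Of all genes, 8.61% were past 2-fold higher and 5.79% lower at day 12, and 8.26% higher and 4.84% lower at day 2.

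Genes known from other work to act under these factors were counted next, as the number called by limma over both arms, relative to the median. Of all genes, 22.4% were called lower and 16.7% higher in this way, and 12.1% lower and 45.5% higher as deposited. Past 2-fold lower in the pooled values were 17.8% of all genes in met-1 mutants and 15.3% in their controls. Of 10 tested detoxification genes under SKN-1, 7 fell and 1 rose, with a median of −1.28 against −0.03 over all genes. The 1 that rose, dhs-8, reached 1 FPKM in 4 day 12 libraries and in 1 of day 2. It so passed the filter on low values through day 12 alone. The glutathione transferase gene gst-10 had 20.1 and 28.5 FPKM at day 12 and 695 and 432 FPKM at day 2 in met-1-labelled libraries, and 18.6 and 25.1 FPKM at day 12 and 646 and 394 FPKM at day 2 in L4440 libraries, a fall of 5.00 ± 0.25 (adjusted p = 9.8e-05). The glutathione transferase genes gst-4, widely used as a reporter of SKN-1 activity, and gst-30 changed by −3.75 ± 0.26 and −1.73 ± 0.23. As deposited, 6 of these genes still fell and 1 rose, and 6 of 11 in met-1 mutants and 8 of 11 in controls were past 2-fold lower, with 1 and 0 higher. The gene prdx-2, a peroxiredoxin, was listed at 0 in all 8 RNA interference libraries. It reached 1 FPKM in the pooled values of mutants and of controls, so the 0 may be a failed estimate.

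Of 13 intestine genes regulated by ELT-2 and ELT-7, 6 fell and 2 rose, with a median of −0.24, while elt-2 itself changed by −0.01. The lysozyme gene lys-8 changed by −3.43 ± 0.22, the fatty acid elongase gene elo-2 by −3.35 ± 0.12 and the gut esterase gene ges-1 by −2.44 ± 0.24. The 2 that rose were the peptide transporter gene pept-1 (1.52 ± 0.18) and the intermediate filament gene ifb-2 (0.83 ± 0.23), named after their values were seen. As deposited, 5 fell and 4 rose, where 12.1% of all genes fell and 45.5% rose. Past 2-fold lower were 7 of 13 in pooled met-1 mutants and 8 of 13 in their controls, against 17.8% and 15.3% of all genes. The summed FPKM of these 13 genes ran from 15514 to 41384 at day 12 and from 20843 to 36844 at day 2, so the sum overlapped between ages. Most of it came from the metallothionein genes mtl-1 (9695 to 31446 FPKM at day 12 and 12063 to 24160 FPKM at day 2) and mtl-2.

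Of 9 epidermal genes under ELT-1 and ELT-3, 7 fell and none rose, with a median of −1.33 (5 fell and none rose as deposited). Among the 7, the gene bli-1 reached 1 FPKM in 4 day 2 libraries and in 1 of day 12. It so passed the filter on low values through day 2 alone. Past 2-fold in the pooled values were 5 of 11 lower and 1 higher in met-1 mutants, and 3 of 9 lower and 1 higher in controls, with medians of −0.99 and −0.41. Of all genes 17.8% were past 2-fold lower in mutants and 15.3% in controls. The inositol transporter gene hmit-1.1 changed by −4.39 ± 0.19, the glycerol phosphate dehydrogenase gene gpdh-1 by −3.25 ± 0.14 and the collagen gene sqt-3 by −2.15 ± 0.16. Both hmit-1.1 and gpdh-1 are also known as genes of the response to salt stress. Of 4 seam cell genes 1 fell, the nuclear receptor gene nhr-74 (−1.93 ± 0.33), and 1 was called higher, bro-1, a partner of a Runx factor. It had 2.29 to 3.74 FPKM at day 12 and 0 to 0.823 FPKM at day 2 and so passed the filter on low values through day 12 alone. As deposited 1 fell and 3 were called higher, bro-1 and ceh-16 among them. The gene ceh-16 also passed the filter through day 12 alone, with 0.878 to 1.96 FPKM at day 12 and 0 to 0.580 FPKM at day 2. None of 7 pharynx genes and none of 5 autophagy genes that act with PHA-4 was called, with medians of −0.06 and 0.12. As deposited 2 and 3 of them rose. The counts as deposited of the epidermal, seam, pharynx and autophagy lists stand beside 12.1% lower and 45.5% higher of all genes.

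Of 2 tested GATA genes outside the 9, the intestinal elt-4 fell by 0.92 ± 0.25 (adjusted p = 0.0307) and egl-27 was not called. As deposited elt-4 was lower by a smaller amount (−0.39), and of the 2 genes 1 rose and none fell. Among 18 other transcription factors of ageing 6 fell and 2 rose, with a median of −0.38. The fat metabolism regulator mxl-3 changed by −1.41 ± 0.23 and the nuclear receptor genes nhr-80 and nhr-62 by −1.36 ± 0.14 and 1.33 ± 0.15, with the same signs as deposited. As deposited 3 fell and 7 rose. Of 13 partners and upstream regulators 3 fell and 1 rose, and as deposited none fell and 6 rose. For both lists these counts stand beside 22.4% lower and 16.7% higher of all genes relative to the median, and 12.1% lower and 45.5% higher as deposited. The kinase genes akt-1, of insulin signalling, and let-363, the worm's TOR, changed by −1.05 ± 0.24 and −0.63 ± 0.15, and were lower as deposited too (−0.52 and −0.10). The kinase gene sek-1, which acts upstream of SKN-1, changed by −0.34 ± 0.09 relative to the median and by 0.19 as deposited.

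**Figure D5:**
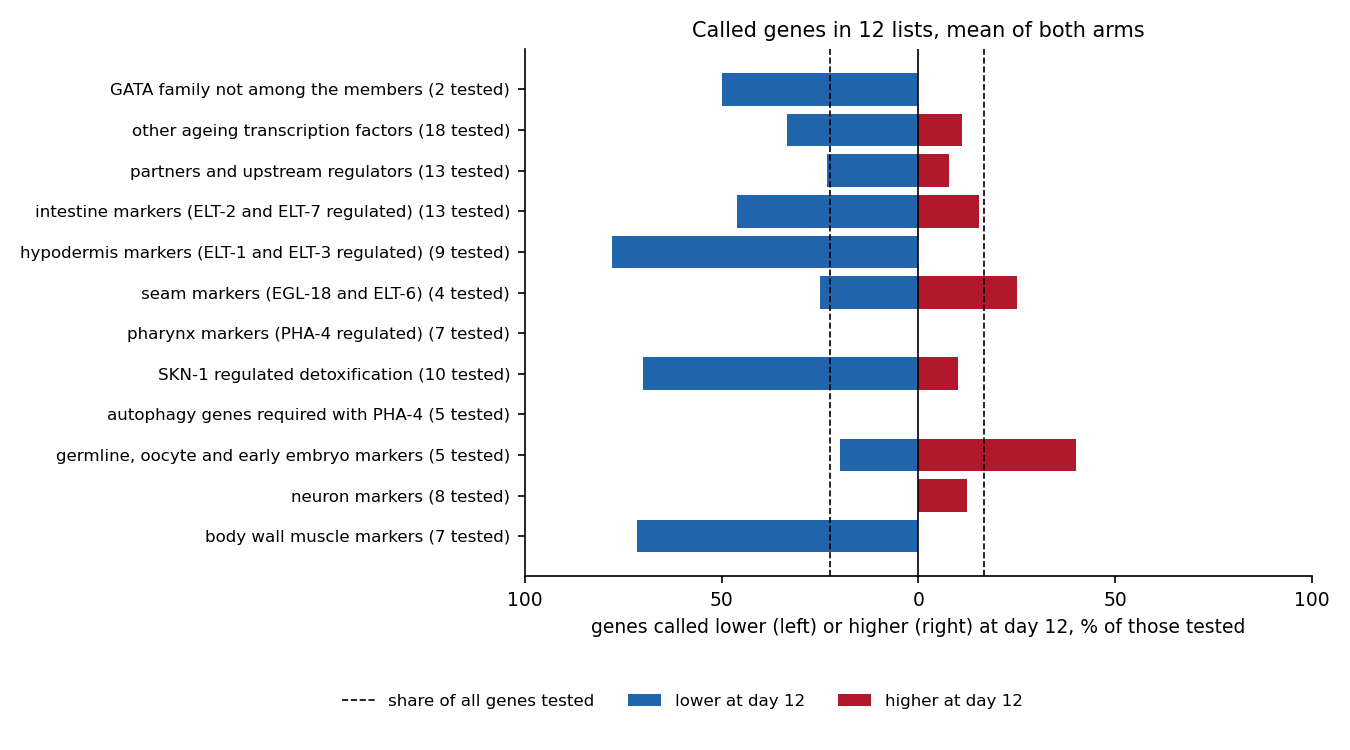
Share of tested genes called lower (left) or higher (right) at day 12 over both RNA interference arms (x axis, % of tested genes, relative to the median gene), for 12 gene lists (y axis), with dashed lines at the 22.4% lower and 16.7% higher of all genes. The lower share is 7 of 9 for the epidermal, 7 of 10 for the SKN-1 and 5 of 7 for the muscle list, and as deposited it was 5 of 9, 6 of 10 and 2 of 7. The epidermal 7 include bli-1, which passed the filter on low values through day 2 alone.

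Markers of other tissues were counted the same way. Of all genes, 22.4% were called lower and 16.7% higher relative to the median, and 12.1% lower and 45.5% higher as deposited. Of 7 body wall muscle genes 5 fell and none rose (2 fell and 1 rose as deposited), with the troponin T gene tnt-2 changing by −2.90 ± 0.16, and their summed FPKM was 461 to 619 at day 12 and 682 to 1163 at day 2. Of 8 neuron genes 1 rose, the synaptobrevin gene snb-1 by 0.46 ± 0.14 (4 rose as deposited), with a sum of 1990 to 2546 FPKM at day 12 and 993 to 1277 FPKM at day 2. Most of that sum came from snb-1 itself (1715 to 2252 FPKM at day 12 and 828 to 1134 FPKM at day 2). Of 14 germline, oocyte and early embryo genes 5 passed the filter on low values, pos-1 and puf-5 through day 12 alone. The gene pos-1 had 7.12 to 13.9 FPKM at day 12 and 0.113 to 0.589 FPKM at day 2. For puf-5 these were 0.798 to 1.79 FPKM at day 12 and 0.0471 to 0.553 FPKM at day 2. Among the others glh-1 rose by 0.82 ± 0.15 and pie-1 fell by 0.63 ± 0.12 relative to the median over both arms, and they changed by 1.35 and −0.10 as deposited. The arms of pie-1 went opposite ways as deposited. It had 2.94 and 3.31 FPKM at day 12 and 4.84 and 5.00 FPKM at day 2 in met-1-labelled libraries. Under L4440 pie-1 had 4.39 and 4.16 FPKM at day 12 and 3.05 and 3.43 FPKM at day 2. The sum over all 14 genes of that list was 36.1 to 46.8 FPKM at day 12 and 14.2 to 16.2 FPKM at day 2, with the germline granule gene pgl-1 at 0.000125 FPKM or less and the oocyte receptor gene rme-2 at 0.0270 FPKM or less in all 8 libraries. The part of these markers in the changes of the transcription factors was not tested.

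The genes whose levels followed each factor most closely were named by Pearson's r of the scaled log2 sums over the 8 libraries, which share depth, age and arm. For elt-1 these were the acetylcholine receptor gene acr-18 (0.992), the intermediate filament gene ifb-1 (0.989) and the epidermal attachment gene pat-12 (0.989). For pqm-1 they were F53A9.8 (0.995), the cytochrome P450 gene cyp-36A1 (0.991) and F47D12.6 (0.990), and for skn-1 the carotenoid oxygenase gene bcmo-2 (0.990), T20D4.13 (0.990) and ZK154.4 (0.985). For elt-2 they were C32D5.7 (0.976), F46H5.7 (0.959) and cni-1 (0.957), for elt-7 R05D7.7 (0.981), pigc-1 (0.980) and nhr-212 (0.970), and for elt-3 fbxa-167 (0.945), ndc-80 (0.930) and K03B4.9 (0.922). For pha-4 they were T13F3.8 (0.950), C33F10.20 (0.929) and casc-3 (0.925).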

How the data were processed

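The authors deposited 4 tables. Per the file headers, 3 of them (control, mutant and isoform) hold FPKM, as 1 pooled value per group. The RNA interference table deposited by the authors gives 1 value per library with no unit named, and it was read as FPKM because Cuffdiff is listed in the submitters' processing notes beside CASAVA 1.8, BWA, TopHat and TopHat2. The isoform table's log2 fold change (day 12 over day 2) and q-value were deposited by the authors, made by a test that the sources used here do not describe, nor do they state genome build, annotation or strandedness.

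Of 46971 transcripts, 1112 with a status other than OK were left out. Symbols came from RefSeq accessions (41331 transcripts) and the isoform table (2982). limma 3.58.1 (lmFit, eBayes with trend, two-sided, R 4.3.3) was run on log2(FPKM + 1) of transcripts and of sums per gene, for features that reached 1 FPKM in 2 or more libraries, every library scaled to one median, 4 groups of 2 in 1 fit, and Benjamini-Hochberg adjustment over all tested (18572 transcripts, 15850 genes). The scale understates changes of low genes. Pooled values were called past 2-fold relative to the median, without a test. The tests were tested on simulated data. Reads per library are unknown beyond the relative numbers, read from steps between low values. The labels do not say whether replicates were separate cultures, so p-values measure only the spread between these samples. All members and 12 gene lists were chosen with earlier results of these data known. From each list at most the 3 called genes with the largest change were named, and for each member the 3 genes of highest Pearson's r. Further list genes were named only to show a limit of a count or sum, or the other direction. The test of transcripts against each other, the pooled sums and the added same-locus transcripts were chosen after seeing the data.

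Alternatives were values as deposited, quantile normalization, equal summed FPKM, another pseudocount, no filter, a replicate block and each library left out. The 12 chromatin samples were not analysed here.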

Additional observations from a re-analysis of the deposited data

Results flagged for a closer look

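The epidermal seam genes egl-18 and elt-6, left out of the tests because of their HIDATA status in the control and mutant tables, had values above 0 in both L4440 libraries of day 12 alone. There egl-18 was listed at 3.133 and 4.865 FPKM and elt-6 at 2.349 and 2.412 FPKM, while both were listed at 0 in the other 6 libraries, the 4 met-1-labelled libraries and the 2 L4440 libraries of day 2. Values of 0 can be failed estimates, and whether these are was not tested.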

How the results depend on the processing

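Under the scalings, pseudocount, filter and block tried and without each of 8 libraries, the fall of skn-1 NM_171347 and its difference from the other transcript kept direction and call. Several signs turned with the scaling. As deposited, elt-2 changed by 0.52, elt-3 by 0.37, elt-7 by 0.22, pha-4 and its NM_001047651 by 0.39, NM_001270307 by 0.48 and NM_071882 by 0.49. Quantile normalization gave 0.12 for elt-2, 0.064 for NM_001270307 and 0.10 for NM_071882, equal summed FPKM gave 0.10, 0.063 and 0.070 for these and 0.16 for pha-4 and NM_001047651, and a pseudocount of 0.1 gave 0.092 and 0.106 for them. Without 1 library each, elt-2 ran from −0.10 to 0.088, NM_001270307 from −0.28 to 0.21, NM_071882 from −0.076 to 0.051 and NM_171345 from −0.0095 to 0.34. The cause was not tested.

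Counts of calls over all genes moved as follows. As deposited, 6436 genes changed with age in met-1-labelled and 6120 in L4440 animals, and without the filter on low values 7082 and 6857, with 10128 genes and 10407 transcripts over both arms and 587 transcripts in the test of isoform use. In that first setting 79.0% of calls over both arms were higher, against 42.6% relative to the median and 49.3% after quantile normalization. A pseudocount of 0.1 left 16 interaction calls and 17 between arms at day 2. Leaving out 1 library gave 2197 to 3996 calls with age in met-1-labelled animals and 2324 to 3511 in L4440 animals, 9 to 86 for the interaction, 16 to 134 and 1 to 34 between arms at day 12 and day 2, and 169 to 417 for isoform use.

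Over all transcripts same-numbered libraries showed little shared deviation (correlations of −0.06 to 0.13), and the main fit does not pair them. Summed skn-1, scaled to the median, was higher in the second library than in the first of every group. Whether same-numbered libraries share a batch was not tested. With the replicate block 10 interaction calls, 52 between arms at day 12 and 16 at day 2 were left, and pqm-1 passed over both arms (0.84, limma adjusted p = 0.0266) and in met-1-labelled animals (1.11, adjusted p = 0.0437). With 2 libraries a group, 1 of them shallow, small changes of members were not detectable.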
